A study of Mus musculus with 3 samples.

Results

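Isl1 peaks lying more than 100 kb from the closest transcription start site (TSS) made up 3240 of the 14082 distinct peaks in the deposited list, or 23.0%. They were chosen by the deposited signed distance to the TSS alone, after lines with identical values had been counted once. The list came from chromatin immunoprecipitation followed by sequencing (ChIP-Seq) of Isl1 in cardiac progenitor cells (CPCs), obtained at day 5 from the mouse embryonic stem cell (ESC) line E14 Tg(Nkx2-5-EmGFP), which carries a fluorescent reporter for Nkx2-5. The 2 Isl1 ChIP replicates were made with antibody clone 39.4D5 and the 1 input was chromatin kept before the pulldown. All 3 samples shared the same line, the same growth factor protocol and the same day, and no Isl1-deficient or unspecific antibody sample was analysed here. The cells come from 1 reporter line, kept on mouse embryonic fibroblasts before differentiation. Nothing in the labels says whether the replicates came from separate differentiations.

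Isl1 marks progenitors of the second heart field and binds DNA through its homeodomain, and factors of this kind often act at enhancers far from the genes they control. Stretches of the genome without genes also hold much of the repeated DNA. In mouse, an intact LINE-1 retrotransposon has a promoter built of tandem copies of one unit, called monomers, followed by a pair of reading frames, the longer of which encodes the endonuclease and reverse transcriptase. The list gives positions only, without score, read number or input value, so the depth is unknown, replicate error is unknown, and intervals below are 95% Wilson intervals for shares and Newcombe intervals for differences between shares. They cover counting error within the list, whose peaks are not independent where they share sequence.

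The sequences of these peaks were dominated by tandem repeats, in which a stretch of DNA is followed directly by further copies of itself. Repeats were found without a repeat library, as the spacing at which 21-mers recurred at least 20 times within a peak. By this measure 1778 of the 3240 peaks (54.9%, interval 53.2 to 56.6%) held a long unit, at lengths from 194 to 222 bp. A further 969 (29.9%) held a short unit of at most 50 bp, 77 had a unit of another length, and 416 (12.8%) had none. For background, stretches of 950 bp were taken every 10 kb over 100 kb from an annotated TSS. Of these, 0.348% held a long unit, 11.2% a short unit and 88.0% none. Long units were defined by a lower and an upper length limit, both just outside 194 to 222 bp, so that range depends on the definition. Units above 50 bp but outside those limits, such as units of 402 and 432 bp, were counted as another length. The following stretches show long units of 212, 214 and 206 bp, on the plus strand of mm9, with a 21-mer and its next copy 1 unit further on in capitals. The first and second are the peaks with most sequence shared with other members, and each of the rest is the peak whose centre was most common among peaks of its unit length.
unit of 212 bp, peak assigned to Mir6378: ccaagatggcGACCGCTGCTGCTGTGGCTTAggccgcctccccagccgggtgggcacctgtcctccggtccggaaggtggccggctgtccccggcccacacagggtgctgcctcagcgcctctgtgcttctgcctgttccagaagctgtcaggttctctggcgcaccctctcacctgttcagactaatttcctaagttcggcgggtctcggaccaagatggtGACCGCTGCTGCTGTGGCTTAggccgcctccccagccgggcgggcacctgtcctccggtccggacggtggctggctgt
unit of 212 bp, peak assigned to Abcc12: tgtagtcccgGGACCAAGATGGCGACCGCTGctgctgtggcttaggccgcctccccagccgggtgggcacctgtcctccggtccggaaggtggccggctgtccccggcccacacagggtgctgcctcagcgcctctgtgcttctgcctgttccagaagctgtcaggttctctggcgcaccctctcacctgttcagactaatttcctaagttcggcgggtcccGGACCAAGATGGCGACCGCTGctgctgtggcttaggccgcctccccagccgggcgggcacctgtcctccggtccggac
unit of 214 bp, peak assigned to 4930434J06Rik: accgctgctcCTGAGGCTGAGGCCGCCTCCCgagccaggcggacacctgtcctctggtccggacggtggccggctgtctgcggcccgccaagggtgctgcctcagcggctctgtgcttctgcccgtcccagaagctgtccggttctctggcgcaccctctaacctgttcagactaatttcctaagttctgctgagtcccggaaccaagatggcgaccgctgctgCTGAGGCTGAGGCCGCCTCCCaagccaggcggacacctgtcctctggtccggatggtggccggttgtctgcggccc
unit of 206 bp, peak assigned to Ppp1r2-ps9: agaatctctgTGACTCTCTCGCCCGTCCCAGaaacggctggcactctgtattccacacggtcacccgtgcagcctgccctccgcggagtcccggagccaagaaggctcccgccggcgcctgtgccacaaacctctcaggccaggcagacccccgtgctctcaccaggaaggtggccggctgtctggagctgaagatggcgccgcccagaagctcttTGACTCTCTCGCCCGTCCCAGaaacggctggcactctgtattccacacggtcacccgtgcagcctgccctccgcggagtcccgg
These stretches lie at chr3:35029509-35029808, chr8:88902401-88902700, chr14:72456893-72457192 and chrX:14976532-14976831. The peaks on chromosomes 3 and 8 lay 208 and 188 kb from their assigned TSS, in intergenic sequence, and the others 201 and 288 kb away, also intergenic. A reading frame of 1281 codons, described further on, followed each of these stretches.

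Among the 1778 peaks with a long unit, lengths fell on few values. A unit of 212 bp was found in 769 peaks (43.3%), 208 bp in 424 (23.8%), 214 bp in 246 (13.8%), 206 bp in 90, 204 bp in 84 and 201 bp in 82. Lengths grouped by sequence as well as by size. In peaks with the 208 bp unit, a median of 69.7% of the 21-mers in the central 200 bp also occurred in at least 10% of the 201 bp peaks, against 0% for the 212, 214, 204 and 206 bp units. Peaks with the 206 bp unit shared a median of 78.9% with the 204 bp unit and 0% with the 208 and 212 bp units. The 212 bp peaks shared 22.2% with the 214 bp unit and none with the others by this median. In the other direction, the 214 bp peaks shared a median of 3.89% with the 212 bp unit. By exact 21-mers the 208 bp unit thus grouped with 201 bp, and 206 bp with 204 and 205 bp. The 212 and 214 bp units shared less with each other, and by this median nothing with the other lengths.

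**Figure D1:**
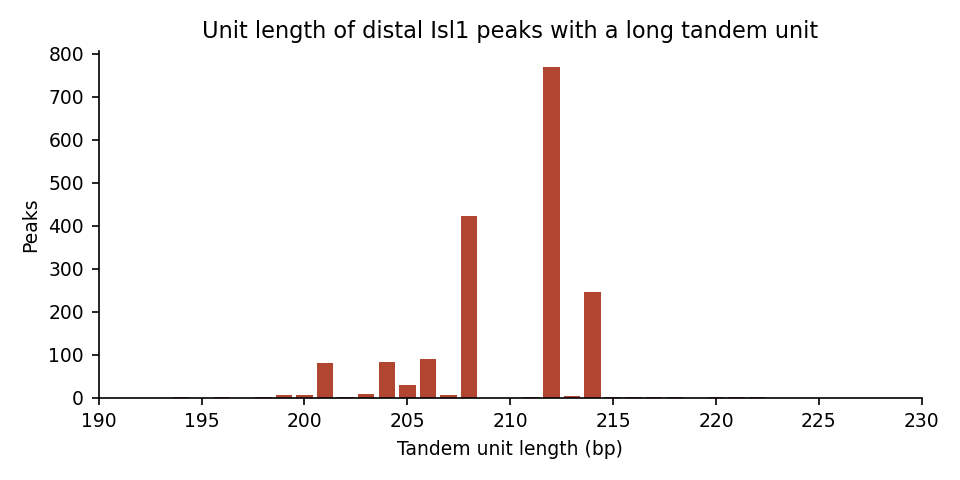
Number of distal Isl1 peaks (y axis) by the length in bp of their tandem unit (x axis), for the 1778 peaks with a long unit, from 194 to 222 bp. Bars at 212, 208 and 214 bp hold 769, 424 and 246 peaks.

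The peaks with long units formed the wider and more repeated class. Width and copies depend in part on the class rule. A unit had to recur within the peak, so a narrow peak over an array can count as having none. Tandem copies also add to the copy number. The long-unit peaks had a median width of 1130 bp, while peaks with a short unit had 623 bp and peaks without a unit 746 bp. The central 200 bp had a GC content of 64.5% ± 1.82 (SD, n = 1778 peaks), with a median of 12 CpG dinucleotides, whereas sequence 2 kb to the lower side had 38.7% ± 5.44. The 31-mers in their centres occurred a median of 1847 times in the genome, and their 75-mers 164 times. Copies differed between unit lengths. The median was 2199 for 212 bp and 2501 for 208 bp, but 464 for 214 bp, 370 for 204 bp and 226 for 201 bp.

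Most long-unit peaks lay shortly before a long reading frame. ATG-to-stop reading frames of at least 1000 codons were sought within 8 kb of each peak midpoint, and 1352 of the 3240 distal peaks (41.7%, interval 40.0 to 43.4%) had one. In 1266 of these 1352 (93.6%) the midpoint lay 0.5 to 3.5 kb before the start codon on the strand of the frame, at a median of 1750 bp (interquartile range 1646 to 1897 bp). The frame had exactly 1281 codons in 1071 of the 1266 (84.6%). A shorter frame of at least 300 codons lay between peak and long frame in 1175 (92.8%), and its most common length was 371 codons, in 761. The order of array, shorter frame and longer frame is the order of a full-length LINE-1, as given above. Such a position was held by 1185 of the 1778 peaks with a long unit (66.6%), 66 of the 416 without a unit (15.9%) and 7 of the 969 with a short unit (0.722%). In a regular grid of 200 bp windows every 10 kb, 0.783% of windows over 100 kb from an annotated TSS lay in that position.

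**Figure D2:**
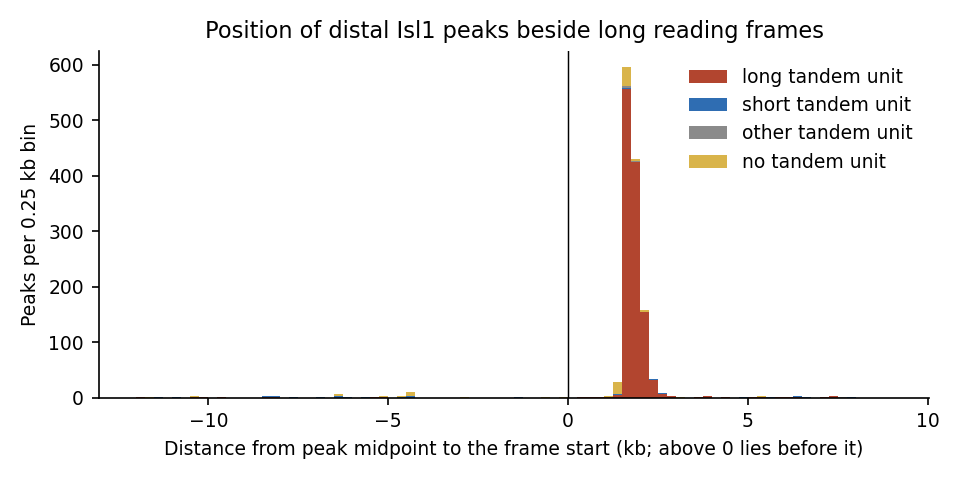
Distance in kb from the midpoint of a distal peak to the start of the closest reading frame of at least 1000 codons (x axis; values above 0 mean that the peak lies before the frame) against the number of peaks per 0.25 kb bin (y axis), stacked by tandem unit class. Of 1352 peaks, 1266 lie 0.5 to 3.5 kb before the frame, and 1185 of those carry a long unit.

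Occupancy was then counted from the side of the frames, in the window of 0.5 to 3.5 kb set after the peaks had been seen. Among frames of at least 1000 codons in the mm9 sequence, 1281 codons was the most common length, with 3106 frames, and 1920 of them (61.8%) had an Isl1 peak midpoint 0.5 to 3.5 kb before the start codon, 1072 of these being distal peaks. Of the 2248 frames of other lengths, 381 had one (16.9%), and of the 578 among them with a long unit, 309 (53.5%). Where the stretch before a frame of 1281 codons held a long unit, 1809 of 2483 frames had a peak (72.9%, interval 71.1 to 74.6%). Where it held no tandem unit, 58 of 406 had one (14.3%), a difference of 58.6 points (interval 54.4 to 62.1). The share also differed between units. It was 83.3% for the 212 bp unit (1023 of 1228), 53.6% for the 208 bp unit (384 of 716), 76.4% for the 214 bp unit (139 of 182) and 94.3% for the 206 bp unit (132 of 140). Of the less frequent units, 205 bp had 97.5% (39 of 40), 204 bp 83.7% (41 of 49) and 201 bp 35.4% (28 of 79). The 212 bp unit exceeded the 208 bp unit by 29.7 points (interval 25.4 to 33.8).

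Occupancy was also compared by distance from genes and between chromosomes. Of the frames with a long-unit array more than 100 kb from any annotated TSS, 569 of 784 had a peak (72.6%), and of those at 10 to 100 kb, 1031 of 1411 (73.1%). The difference was -0.49 points, with an interval from -4.43 to 3.34. On chromosome X, 194 of 262 arrays had a peak (74.0%) against 1612 of 2218 on the autosomes (72.7%), a difference of 1.37 points (interval -4.55 to 6.65).

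Longer arrays carried a peak more often. The number of units was estimated from the span of recurring 21-mers before the frame, and its median was 2.94 over the 2483 arrays. The 21-mers had to match exactly, and the estimate was tried on simulated arrays with 2% of bases mutated. Units that differ more can be missed, so arrays counted as short may hold diverged units, which was not tested. Arrays with under 2.5 units had a peak in 57.4% of cases (542 of 945, interval 54.2 to 60.5%), those with 2.5 to 3.5 units in 74.8% (463 of 619), and those with 3.5 to 4.5 units in 87.3% (352 of 403, interval 83.7 to 90.2%). Above that the share was 88.1% at 4.5 to 5.5 units, 89.7% at 5.5 to 7.5 units and 79.4% at 7.5 units or more (54 of 68, interval 68.4 to 87.3%). Peaks with midpoints over 3.5 kb before the frame were not counted, which can lower the share of the longest arrays. The share for the 208 bp unit was below that for the 212 bp unit in every bin, from 29.1% against 70.5% under 2.5 units to 74.4% against 94.7% at 4.5 to 5.5 units. Peak width followed the array. The distal peaks at these frames had a median width of 905 bp at under 2.5 units, 1129 bp at 2.5 to 3.5, 1330 bp at 3.5 to 4.5, 1520 bp at 4.5 to 5.5, 1806 bp at 5.5 to 7.5 and 2299 bp above. The 3 widest distal peaks, of 10633, 8009 and 5943 bp, all held the 208 bp unit, and a frame of 1281 codons started 6403, 5034 and 3985 bp after their midpoints. They were assigned to 1700008P02Rik, Lama2 and Myo3a.

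**Figure D3:**
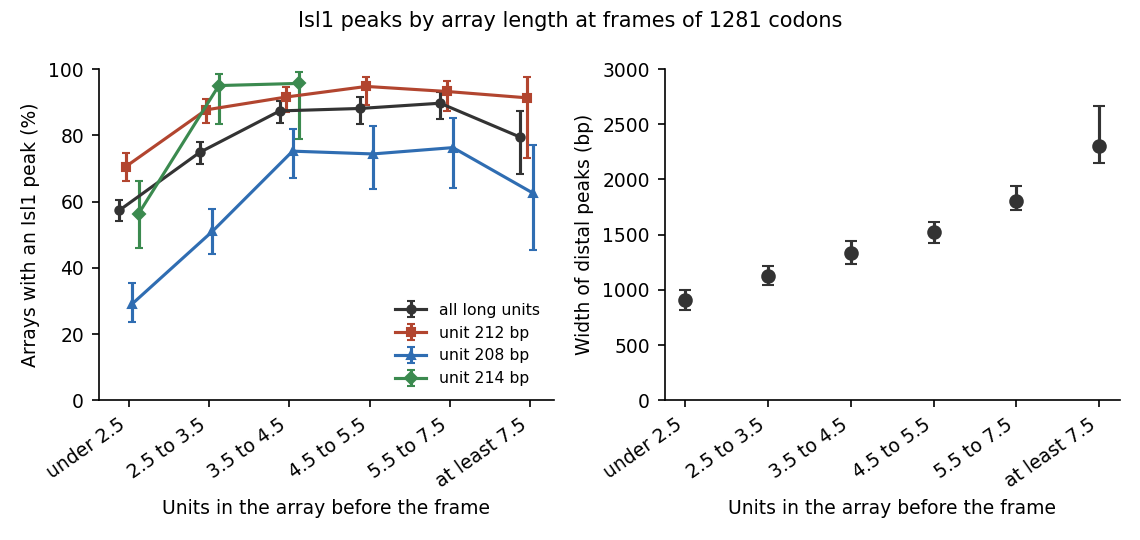
Left, share of frames of 1281 codons with an Isl1 peak (y axis, %, with 95% Wilson intervals) by the number of units in the array before the frame (x axis), for all long units and for units of 212, 208 and 214 bp, in bins of at least 20 frames. Right, median width in bp with interquartile range of the distal peaks at those frames, which rises from 905 to 2299 bp.

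Short-unit peaks were mostly simple repeats with purines on one strand. In 884 of the 969 the unit had at most 12 bases. The purine share of the richer strand over the central 200 bp had a median of 93.5%, and 573 peaks (59.1%) reached 90%, against none of the long-unit peaks. The motif TTC was the repeated unit in 160 peaks, GA in 104, GGA in 70, AAGGAG in 60, CA in 57 and TTAGGG, the repeat of mammalian chromosome ends, in 55. The stretch below is the central part of a short-unit peak, shown because its centre was the most common one for units of 3 bases, among peaks with at least 99% purines on one strand, with all bases that repeat at the unit length in capitals.
unit of 3 bp, peak assigned to Olfr1507: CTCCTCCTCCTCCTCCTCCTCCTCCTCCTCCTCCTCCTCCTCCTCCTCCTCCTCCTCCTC
It lies at chr14:53453388-53453447, on the plus strand of mm9.

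The motifs differed in how many of their copies lay in a peak. Perfect runs of at least 24 bp were counted over the genome on both strands, with all 14082 peaks, which cover 0.567% of its non-N bases. Of 399 runs of TTAGGG, 172 touched a peak (43.1%, interval 38.3 to 48.0%), 74 of them a distal one. The share was 18.4% for AAGGAG (477 of 2597), 13.2% for AAGGG, 12.8% for GGA (1646 of 12898) and 9.05% for TTC. It was 1.09% for GA (1168 of 106971) and 0.704% for CA (1675 of 237817), the most frequent motif of the genome among those counted. The intervals of TTAGGG and of the CA and GA motifs did not overlap. Among whole-unit runs of TTAGGG, 63 of 179 with 4 to 7 units lay in a peak (35.2%, interval 28.6 to 42.4%) and 95 of 150 with 8 to 15 units did (63.3%, interval 55.4 to 70.6%), but only 1 of 9 with 16 units or more. At least 4 perfect units of TTAGGG were found in 61 of the 3240 distal peaks (1.88%), 44 of the 3953 peaks at 10 to 100 kb (1.11%) and 0 of the 5416 peaks within 1 kb of a TSS.

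The share of peaks with repeated sequence rose from class to class of distance and was highest in the distal peaks. A peak was called multi-copy when the 31-mers of its central 200 bp occurred a median of at least 2 times in the genome. This held for 2923 of the 3240 peaks (90.2%, interval 89.1 to 91.2%), against 73.8% at 10 to 100 kb, 38.4% at 1 to 10 kb and 2.62% within 1 kb. In grid windows over 100 kb from an annotated TSS it held for 15.8%. The distal share exceeded that at 10 to 100 kb by 16.4 points (interval 14.7 to 18.2). Long units were more frequent than at 10 to 100 kb by 22.3 points (interval 20.1 to 24.6), while short units were less frequent by 8.87 points (29.9% against 38.8%), and peaks without a unit were less frequent by 11.4 points (12.8% against 24.3%). Beyond 100 kb the long-unit share was 48.1% at 100 to 150 kb and 61.7% beyond 1000 kb. By 75-mers 61.4% of the distal peaks were multi-copy, and 933 peaks were multi-copy by 31-mers alone.

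**Figure D4:**
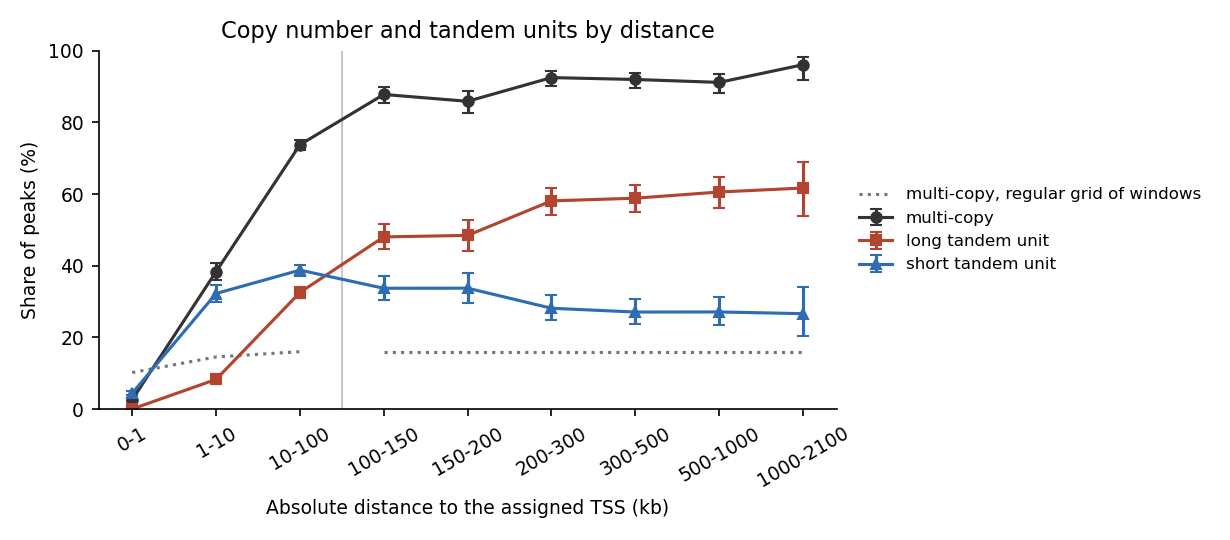
Share of Isl1 peaks in percent (y axis, 95% Wilson intervals) that were multi-copy, held a long unit or held a short unit, by absolute distance to the assigned TSS in kb (x axis); the grey line marks 100 kb. Dotted lines give the multi-copy share of a regular grid of 200 bp windows, classed by distance to an annotated TSS. It stays between 10.2% and 16.02%, while that of the peaks rises from 2.62% to 96.1%.

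The members spanned distances from 1844 kb upstream to 2001 kb downstream, with a median of 241 kb (interquartile range 151 to 432 kb). There were 1512 upstream and 1728 downstream. The share with a long unit was 57.5% upstream and 52.6% downstream. The farthest peaks upstream were a short-unit and a long-unit peak assigned to Nudt12, 1844 and 1771 kb away, and a short-unit peak of Lrrtm1 1806 kb away. Those farthest downstream were assigned to Efna5 (2001 kb, 212 bp unit), Lrrc4c (1998 kb, 212 bp unit) and Olfm4 (1991 kb, short unit). The threshold of 100 kb fell within a continuous range. The nearest peaks inside it, at 100035, -100043 and 100051 bp, were assigned to Nab1, Gm3434 and Gm10440, and the nearest outside, at -99982, 99967 and 99946 bp, to 1810046K07Rik, 1700091H14Rik and Atp8a2.

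**Figure D5:**
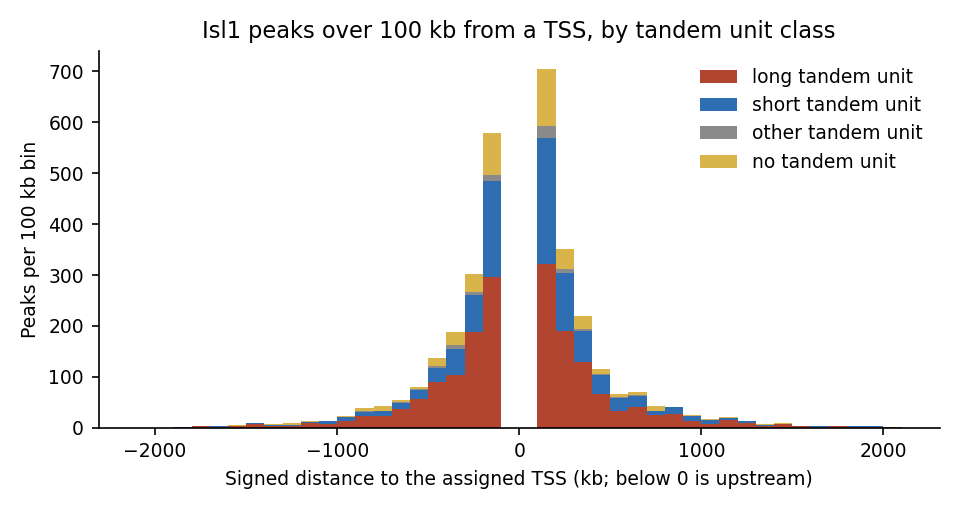
Number of distal peaks per 100 kb bin (y axis) by signed distance to the assigned TSS in kb (x axis, negative upstream), stacked by tandem unit class. The 1512 upstream and 1728 downstream peaks are most numerous near the threshold of 100 kb, and long-unit peaks make up 57.5% and 52.6% of them.

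The description of these peaks as lying in gene deserts held in part. By the GENCODE annotation of mm9, 2516 (77.7%) were intergenic, 679 (20.96%) intronic and 45 (1.39%) exonic, and 12 lay in an annotated UTR. Only 1707 (52.7%, interval 50.96 to 54.4%) were more than 100 kb from every TSS of that annotation, noncoding genes included, while 2757 (85.1%) were so far from every protein-coding TSS. Peaks downstream lay inside a gene more often than those upstream, 29.8% against 13.8%. In 349 of the 724 peaks inside a gene, the surrounding gene had the assigned name. The genes surrounding most distal peaks were Cntnap2 and Gpc5, with 7 each. At 10 to 100 kb, 44.8% of the peaks lay inside a gene, which is 22.5 points more than the 22.3% of the distal peaks (interval 20.4 to 24.6). Grid windows gave 41.2% at 10 to 100 kb and 18.04% over 100 kb from an annotated TSS. The shares of both peak sets were somewhat higher, with intervals that did not overlap those of the windows. The sets are not alike, since peaks were classed by the deposited distance and windows by the annotated one. Of the 1707 peaks over 100 kb from every annotated TSS, 1411 were intergenic.

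Peaks of the single-copy class were few and narrow. The 317 single-copy peaks (9.78%) were 614 bp wide by median and the multi-copy ones 964 bp, and on the log2 scale they were narrower than the 1037 single-copy peaks at 10 to 100 kb by 0.27 (normal interval of the difference -0.34 to -0.20, median 614 against 727 bp). They fell into unlike sets. The 209 with a short unit had a GC content of 51.4% ± 9.54 (SD) and a median of 1 CpG in the central 200 bp. The 96 without a unit had 65.3% ± 10.9 and a median of 15 CpGs, and 75 of them had at least 10. Of all 317, 21 (6.62%) lay within 1 kb of a TSS in the GENCODE annotation, 16 of them with at least 10 CpGs. Among the widest were a peak in an exon of Bach2, 0.02 kb from an annotated TSS though 178 kb from the assigned one, and a peak in Auts2, 0.081 kb from an annotated TSS though assigned to Wbscr17 at 231 kb. Both were chosen after their values were seen.

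Among 50 cardiac regulators, 14 (28.0%) had a distal peak. Of 21900 protein-coding genes, 5.68% had one, and 0.977% had a single-copy one. The 14 genes held 23 peaks, 15 with a long unit, 7 with a short unit and 1, at Eya1, with none. There were 5 single-copy ones, among them peaks assigned to Isl1, Nr2f2, Eya1 and Meis1. Those at Nr2f2 and Eya1 are shown by their central 200 bp, as a single-copy peak with a short unit and the one without a unit, on the plus strand of mm9. For Nr2f2, capitals mark stretches of at least 12 bases that repeat at the unit length of 2 bp, and for Eya1 the GC box GGGCGG on either strand.
Nr2f2: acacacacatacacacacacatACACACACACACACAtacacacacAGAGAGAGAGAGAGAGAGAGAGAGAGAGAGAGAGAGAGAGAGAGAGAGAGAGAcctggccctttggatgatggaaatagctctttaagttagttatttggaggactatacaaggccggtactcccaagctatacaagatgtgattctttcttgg
Eya1: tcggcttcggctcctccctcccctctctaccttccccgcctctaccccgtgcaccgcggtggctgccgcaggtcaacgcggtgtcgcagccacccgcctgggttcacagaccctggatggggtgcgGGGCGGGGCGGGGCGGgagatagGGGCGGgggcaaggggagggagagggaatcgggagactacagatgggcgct
These lie at chr7:78011976-78012175 and chr1:14496780-14496979, both intergenic. The peak assigned to Isl1 itself was 656 bp wide, 567 kb downstream of its TSS, in intergenic sequence, and held a short unit. The peak 500 kb upstream of Nr2f2, which encodes the atrial factor COUP-TFII, held runs of CA and GA. The peak 197 kb upstream of Eya1, a cofactor of second heart field progenitors, had no tandem unit, a GC content of 71.5% and 18 CpGs. The Meis1 peak was 323 bp wide with a 2 bp unit, 147 kb downstream of the assigned TSS but 0.02 kb from the annotated TSS of 8430419K02Rik.

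The other 18 peaks at cardiac regulators were multi-copy. The long 212 bp unit was found at Eya1, Nr2f2, Hey2 (a Notch target) and Rarb (a retinoic acid receptor). The 208 bp unit was found at Tbx18, Mef2c (a myocyte transcription factor) and Wnt5a (a secreted ligand), and the 206 bp unit at Shox2, Wnt5a and Zfpm2. Units of 214 bp were found at Eya1, Tbx18 and Meis1, among others, and a unit of 204 bp at Shox2. A frame of 1281 codons lay 1566 to 2316 bp after the midpoint in 11 of the 15 long-unit peaks, as at Mef2c, where the peak lay 317 kb upstream and the frame started 1758 bp from the midpoint. Short units were found at Shox2, Irx3 and Fgf10 in addition to 4 of the single-copy peaks. Of 30 sarcomere and calcium handling genes 2 (6.67%) had a distal peak, namely Myom2, an M-band protein, with 5 and Slc8a1, the sodium-calcium exchanger, with 1.

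The other gene lists were counted in the same way, beside the 5.68% of all 21900 protein-coding genes with a distal peak. Of 57 matched genes of neural adhesion and synapse, 44 (77.2%) had a distal peak, 184 peaks in all, of which 105 had a long unit and 18 were single-copy. The genes of this list with most peaks were Cntnap2, a neurexin-related adhesion protein (12 peaks), Sorcs1, a sorting receptor (11), Cntnap5a (10) and Lrrc4c, a netrin-G ligand (10). Of 28 cadherins and protocadherins, 17 (60.7%) had one, with 71 peaks, led by Cdh20 (10), Pcdh9 (9), Cdh9 (8) and Cdh11 (6). Of 40 ion channels and glutamate receptors, 20 (50.0%) had one, with 49 peaks, including Grik2 (6), Kcnip4 (5) and Kcnj3 (4). Of 60 transcription factors of other lineages, 20 (33.3%) had one, including Tshz3 (5), Gli3 (2) and Barhl2 (2, both single-copy). Olfactory and vomeronasal receptors took 8 peaks at 5 genes, but their share of all such genes was not computed, so this count cannot be set against 5.68%. The lists lie in stretches of unlike gene density, whose part in these shares was not tested.

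In all, 1630 gene names were assigned a distal peak, 879 of them 1 peak, 751 at least 2 and 126 at least 5. After Cntnap2, most peaks went to 5730507C01Rik and Sorcs1 (11 each), Cdh20, Cntnap5a and Lrrc4c (10 each), and 1700030C10Rik, G6pd2, Gm15679, Gm20268, Ncam2, Pcdh9 and Tsn (9 each). The 12 peaks of Cntnap2 comprised 9 with a long and 3 with a short unit, from 114 to 957 kb away. The 11 of 5730507C01Rik comprised 5 single-copy ones. Unnamed gene models took 755 of the distal peaks (23.3%), against 17.99% at 10 to 100 kb.

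The chromosomes differed in the density and kind of distal peaks. Over bases more than 100 kb from any annotated TSS, which make up 22.0% of the non-N genome, the 1707 peaks that also lay in that territory ranged from 2.21 per Mb on chromosome 11 to 4.03 on chromosome X among the chromosomes other than Y. The density on X was 1.34 times that of the autosomes (63 peaks on X, exact binomial interval 1.02 to 1.72). By class, the ratio was 2.04 for long-unit peaks (53 peaks on X, interval 1.52 to 2.70) and 0.264 for short-unit peaks (4 peaks, interval 0.0717 to 0.681), and no single-copy peak of the 152 in that territory lay on X (upper bound of the ratio 0.859). Arrays with a frame of 1281 codons themselves had a ratio of 1.54 (interval 1.05 to 2.18). On X, 205 of all 248 distal peaks (82.7%) held a long unit, against 52.6% on the autosomes. The densest Mb was chrX:95000001-96000000 with 11 peaks. Neighbouring distal peaks lay within 100 kb of each other in 839 of 3219 cases (26.1%), and the median gap was 312 kb.

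Peaks were also grouped by shared sequence, 2 peaks being linked when at least 50% of the 21-mers in the centre of one occurred in the other. Families were chains of such links, so members of 1 family need not share sequence with each other. By this, 2867 of the 3240 peaks (88.5%) belonged to a family, and 2758 to 1 family that held 1772 long-unit and 720 short-unit peaks. That family joined unlike units, since peaks with the 208 bp unit shared a median of 0% of 21-mers with the 212 and 206 bp units. The next had 28, 12, 11 and 11 members. The family of 12 lay wholly on chromosome 12, with a mean GC content of 72.6% and a median of 8 copies.

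Short strings known for binding factors were then looked for over the central 200 bp, whichever strand held them. CTAATTG or CTAATGG, strings of the LIM-homeodomain type, were found in 12 of the 3240 peaks (0.37%), against 4.17% of grid windows over 100 kb from a TSS. With 1 peak per sequence family, where 1 peak stood for all 2758 of the largest, the share was 1.00%, and over whole peaks 4.85%. Their control strings GTTAATC and GGTAATC, the same letters read backwards, were found in 0.123% of peaks and 2.48% of windows. Only these exact strings were counted, and CTAATTG and CTAATGG are called the TAAT strings below. Other strings around TAAT were not counted, such as CTAATTT, which the 212 and 214 bp stretches printed above hold. The GATA strings, which read AGATA or TGATA followed by A or G, were found in 5.06% of peaks and 42.0% of windows, and the same strings read backwards in 3.55% and 37.6%. With 1 peak per family 9.27% held a GATA string, and over whole peaks 62.6%. Whole peaks, of 921 bp by median, are longer than the 200 bp windows, so whole-peak shares cannot be set against those of the windows. Over the central 200 bp, strings and controls were thus both less frequent in the peaks. The mean GC content there was 61.2% ± 7.28 (SD) against 39.3% ± 7.37 in the windows. Among single-copy peaks, 1.26% held the TAAT strings and 15.5% the GATA strings, with 0.631% and 15.1% for the controls. The GC box GGGCGG was found in 26.9% of the distal peaks and 1.02% of windows, and its reversal GGCGGG, which shares letters with it in GGGCGGG, in 38.5% and 1.11%. These shares were not particular to distal peaks. At 10 to 100 kb the TAAT strings were in 0.455%, the GATA strings in 5.34% and the GC box in 25.4% of peaks. Within 1 kb of a TSS the GC box was in 65.7%. The E-box CACGTG was found in 0.926% of the distal peaks, with 2.96% for GTGCAC, its reversal, and in 1.31% of windows, with 2.67%. CCAAT was found in 20.9%, with 10.6% for TAACC, and in 32.0% of windows, with 22.4%.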

How the data were processed

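The deposited peak list gives chromosome, start and end in mm9, signed distance to the TSS and the assigned gene, without score or count, so each sample's depth is unknown. Per the labels and the study's methods, the authors aligned reads with Bowtie2, removed duplicates with Picard 1.136, called peaks against input with MACS, removed blacklisted regions, kept areas common to both replicates with bedtools 2.15, and annotated the closest TSS with HOMER. The replicates were thus combined, and no per-replicate error can be given. How the aligner placed reads that match several sites can change which repeats have peaks, and this was not tested. Whether starts count from 0 or 1 is not stated, and they were read as counting from 0.

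From the list, 83 repeated lines were dropped. Sequence was read from NCBI m37, the same assembly as mm9, and positions from GENCODE gene models of that build. Copy number was the median over the central 200 bp of the genome-wide count of each 31-mer on both strands. Tandem units, reading frames and families were computed as defined in the text, without a repeat library. Scripts used Python 3.11.15, numpy 2.4.6, scipy 1.17.1, pandas 2.3.3, numba 0.67.0 and matplotlib 3.10.9. The copy number, tandem unit, reading frame and array length steps were tested on simulated sequence. No p-values were computed, since peaks are not replicates. Symbols were matched to RefSeq for 1628 of 1630 names.

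Members, gene lists and measures were chosen with earlier results of these data known. Peaks named were the 3 widest, the 3 farthest on each side, the 3 nearest to the threshold on each side and those at cardiac regulators. Genes named were the 10 with most peaks, ties in alphabetical order, and up to 4 per list. Ncam2, Pcdh9 and Tsn, which tie with the last of the 10, were added after their values were seen. Sequences were to come from the 4 largest families, but only the first was shown, and typical peaks per unit length took the place of the rest, a choice made after seeing the data. Some genes and sequences that these rules name are not reported here. Alternatives covered the distance, width, copy number, string window, family and frame settings.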

Additional observations from a re-analysis of the deposited data

Results flagged for a closer look

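Among the distal peaks, 12 had lines that were repeated in the list, which the comparisons counted once. By median they were 2277 bp wide and the other distal peaks 920 bp, and 11 of the 12 held a long tandem unit. The repeats carry no label, and their cause was not tested.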

How the results depend on the processing

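Over 67 alternatives to 14 results, 29 left the value within its spread or count limit, 37 moved it and 1 turned its direction. The density on chromosome X fell from 1.34 times that of the autosomes to 0 with single-copy peaks only. It was 1.23 times over all non-N bases and 1.16 times with protein-coding TSSs. A threshold of 200 kb gave 1956 peaks, and the closest TSS of any annotated gene 1845. The multi-copy share was 88.0% above 50 kb, 92.3% above 200 kb, 91.8% for peaks of at least 500 bp, 81.8% at 10 copies or more, 86.1% over the central 400 bp and 61.4% with 75-mers. Its difference from 10 to 100 kb kept its sign under the 10 alternatives run, from 9.43 to 21.8 points. The median width was 614 bp for single-copy peaks, 964 bp for multi-copy peaks and 945 bp above 200 kb. Mean GC content was 61.5% over the central 100 bp, 59.8% over 400 bp, 54.2% over whole peaks and 56.2% in single-copy peaks. The share inside a gene was 20.6% for protein-coding genes, 35.02% for single-copy peaks, 27.7% above 50 kb and 17.0% above 200 kb. The TAAT strings were in 0.123% of central 100 bp stretches, 4.85% of whole peaks, 1.26% of single-copy peaks and 1.00% with 1 peak per family, and the GATA strings in 1.98%, 62.6%, 15.5% and 9.27%. A frame lay beside 71.2% at 300 codons and 2.21% of single-copy peaks. Families held 94.9% at a shared 20% and 72.8% at 80%. Of single-copy peaks, 4.38% had another within 100 kb. Genes numbered 751 with at least 2 peaks and 286 with single-copy peaks. In alternatives chosen after seeing the data, the long-unit share was 51.2% at 50 recurrences, 50.7% above 50 kb and 59.3% above 200 kb. The cause of these moves was not tested.

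Leaving out each replicate in turn could not be run, since the list is 1 combined set. No paired analysis was possible because the list holds no values per sample. Without scores, input values or read numbers, the strength of a peak and its depth could not be weighed.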
